A study of Gorilla gorilla with 12 samples.

Results

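The 37 genes described here code for proteins of DNA replication and S phase, the stage of the cell cycle in which the genome is copied. They were taken by symbol from the array's annotation, which covered all 37 of them, among 8226 genes with a probe set of their own. A probe set is the group of short probes that reads 1 transcript. Of the 37 genes, 24 had 1 probe set and 13 had more, 52 probe sets in all, and each gene is represented by the probe set with the highest mean log2 intensity over the 11 standard arrays. All 37 passed the filter on dim probe sets, and all 37 symbols were found in the gorilla RefSeq gene table.

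The cells were fibroblasts, cultured connective tissue cells, grown as lines from gorillas that the labels call normal, with 1 array per culture. The labels give each line a code, an age and a sex but do not name the animal. Each line was taken as that of a separate animal. A second culture of male line 2 (KB_7621, donor of 26 years) was harvested at 50% confluence, when cells covered part of the dish. The 5 standard lines labelled male were KB_7500, KB_7621, KB_7801, KB_8592 and KB_9047, called male 1 to 5, from donors of 19, 26, 24, 18 and 3 years. The 6 labelled female were KB_5047, KB_6268, KB_6278, KB_8021, KB_8594 and KB_8840, called female 1 to 6, from donors of 19, 19, 35, 26, 30 and 2 years. These 11 cultures, whose labels give no confluence, are called standard here. The sources used here do not give their cell density at harvest, which may differ among them. The numbers only name lines and pair nothing.

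Before S phase, the origin recognition complex and CDC6 load the ring-shaped MCM2 to MCM7 helicase onto replication origins, a step called licensing. CDC45 and the GINS complex then switch the helicase on, DNA polymerases alpha, delta and epsilon copy both strands, and the sliding clamp PCNA, placed by the RFC clamp loader, holds polymerases on the DNA. Ribonucleotide reductase, thymidylate synthase and thymidine kinase supply the deoxynucleotides. Many of these genes are transcribed under the E2F factors, which cyclin E with its kinase helps to release from the retinoblastoma protein, and their transcripts are abundant in cycling fibroblasts and scarce in resting ones.

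Intensities are printed as deposited, on a linear scale with a floor of 100, so a value of 100 is only an upper limit. Differences and standard errors are in log2 units after quantile normalization, where 1 unit is 2-fold. Probes were designed on human sequence, so the level of one gene was not read against that of another. In RNA of a whole culture, fewer cells in S phase and less of a transcript per cell cannot be told apart. On the 12 arrays, 40.1% to 49.2% of the 12625 probe sets stood at the floor, and 3' to 5' signal ratios, which read RNA integrity, were 0.821 to 1.34 (GAPDH) and 0.672 to 1.19 (ACTB). All 11 fibroblast markers measured were above the floor on every array. The markers PTPRC, CD3D and LYZ of blood cells, KRT5, KRT14, KRT19 and DSP of epithelium and VWF of endothelium were at the floor on every array. Other markers were not. KRT8 of epithelium, CD3E of blood cells and MLANA of melanocytes were above the floor on every array, at up to 1662, 252 and 247. CD14 and HBB of blood cells, TEK of endothelium and PMEL of melanocytes reached 1673, 451, 327 and 433 on some. Summed over each list, the 8 epithelial markers had 1582 to 2715 in male and 1629 to 2362 in female lines, the 7 blood markers 816 to 2573 in male and 903 to 2471 in female lines, the 5 endothelial markers 500 to 728 in male and 500 to 568 in female lines, and the 3 melanocyte markers 309 to 841 in male and 306 to 590 in female lines. Their part in the results was not tested. The line labelled female 3 went against its label. RPS4Y1, a gene of the Y chromosome, had 2662 to 4363 in the lines labelled male and 2595 in that line, while the other 5 lines labelled female had 100 to 115. It was kept in its labelled group, and the differences between the sexes are also summarised without it.

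The cultures differed widely in replication genes, and they differed in much the same order for gene after gene. The mean log2 intensity of the 37 genes was 9.05, 7.95, 9.76, 8.84 and 8.47 in males 1 to 5, and 7.81, 8.64, 7.69, 7.84, 8.72 and 7.92 in females 1 to 6. The highest and the lowest standard culture, male 3 and the line labelled female 3, thus lay 2.06 log2 units apart. In deposited intensity, the highest of the 11 standard arrays was male 3 for 30 of the 37 genes, and for 9.67% of all 7535 probe sets tested. Rankings of lines for single genes below are also on deposited intensities, and a few change after normalization. All 37 genes were above their own 11-array mean in male 3, against 1 in female 1 and 2 each in females 3 and 4. The line labelled female 3 was lowest or tied for lowest for 18 genes and female 4 for 15, where this held for 20.7% and 21.3% of the probe sets tested.

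**Figure D1:**
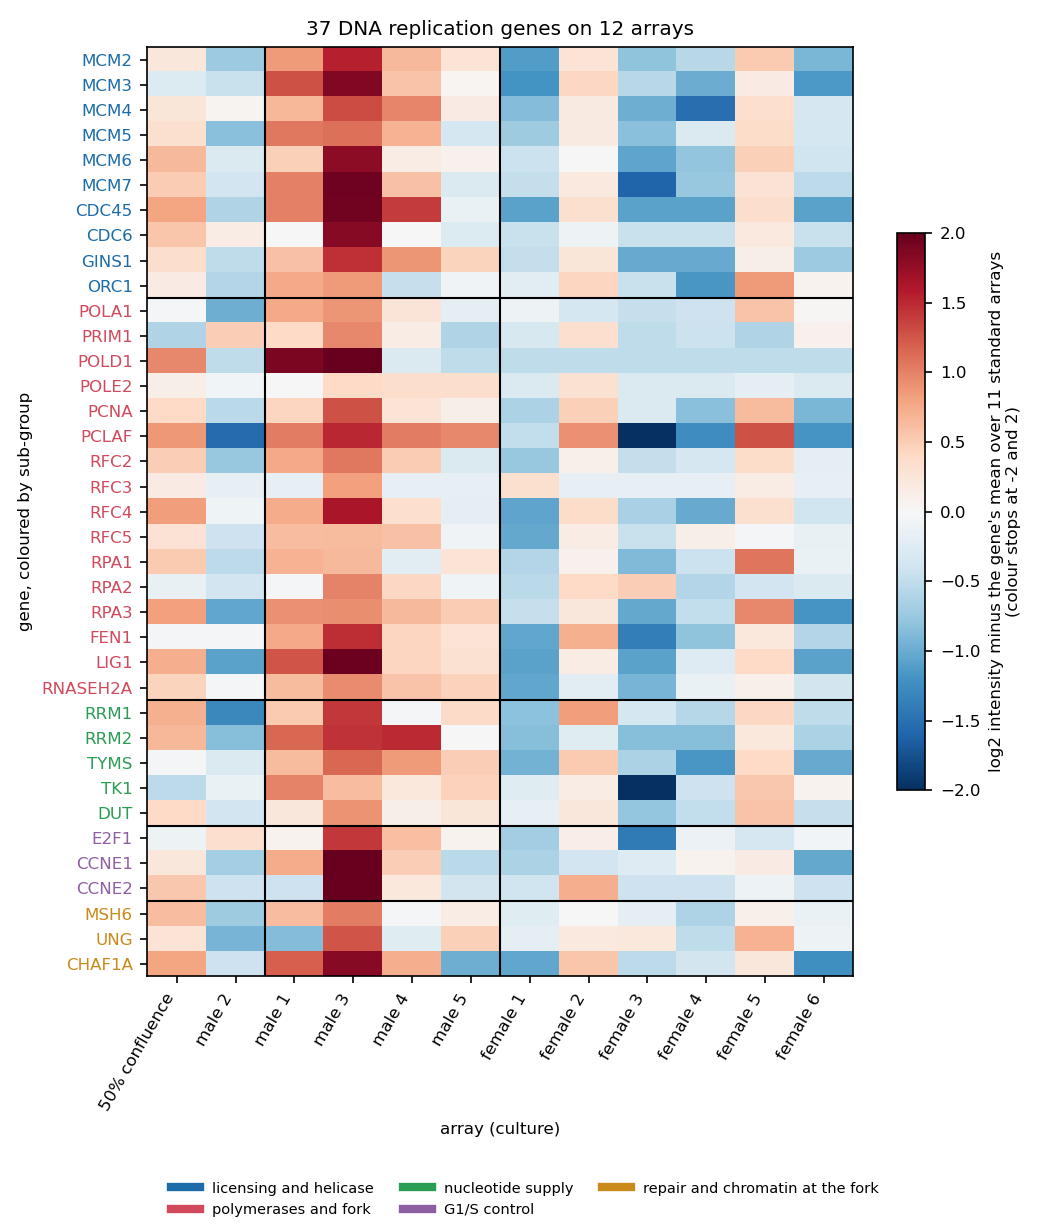
Log2 intensity after quantile normalization of each of the 37 genes (rows, coloured by sub-group) on each of the 12 arrays (columns), minus the mean of that gene over the 11 standard arrays. The column of male 3 is red in all 37 rows, and the columns of females 1, 3 and 4 are blue in nearly all, with 1, 2 and 2 genes above their mean.

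The SD over the 11 standard arrays had a median of 0.76 log2 units for the 37 genes, against 0.41 for all probe sets tested. For 22 genes of mitosis this median was 0.79, so the wide spread was not particular to the 37 genes. An SD above the 75th percentile of all probe sets (0.52), passed by 25% of them, was found for 30 of the 37 genes. The SD was lowest for POLE2 (0.30) and highest for PCLAF (1.35). In 21 genes the lowest standard line was above the floor, and there the highest line had 3.17 to 13.4 times its intensity. In the other 16 the lowest line was at the floor, so that only a lower limit of this ratio could be had. Among the standard arrays, that of male 3 had the largest share of probe sets at the floor (48.8%), the lowest maximum (20629) and the lowest summed intensity of fibroblast markers (80533, against 91497 to 131816 in the other standard lines). The part of these array values in the result was not tested.

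Licensing and helicase genes were the sub-group of 5 or more genes with the widest range over the lines. The mean of these 10 genes spanned 2.44 log2 units, and was 10.02 in male 3 and 7.58 in the line labelled female 3. MCM7, a subunit of the helicase ring, had 2171, 763, 3942, 1490 and 840 in males 1 to 5, and a lowest value of 333, a median of 708.5 and a highest value of 1227 in the female lines. MCM2, another subunit and the one that also binds histones, had 1857, 601, 3016, 1527 and 1169 in males 1 to 5, against 466, 628 and 1439 as lowest, median and highest in the female lines. Male 3 was the highest and male 2 the lowest of the males for both, and the sexes overlapped.

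All 6 genes of the helicase ring, MCM2 to MCM7, had their highest standard value in male 3. MCM6 had 2357 there and 323 to 949 in the other 10 standard lines, and MCM3 had 1043 there and 133 to 668 elsewhere. MCM5 differed from these in that male 1, at 839, nearly reached the 887 of male 3. MCM4 had 436, 318, 718, 563 and 333 in males 1 to 5, and from the floor of 100 in female 4 to 363 in female 5. The SDs of the 6 genes lay between 0.72 (MCM5) and 0.99 (MCM3).

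Several of the genes that load and start the helicase were at the floor in some lines. CDC45, part of the active helicase, had 406, 161, 826, 553 and 202 in males 1 to 5. Of the female lines, 4 had the floor value and females 2 and 5 had 261 and 270. GINS1, a subunit of the GINS complex, had 284, 164, 556, 383 and 289 in males 1 to 5 and 100, 145.5 and 234 as lowest, median and highest in the female lines. CDC6, the loader of the helicase, stood at 478 in male 3 and at 100 to 173 in the other 10 standard lines, so male 3 stood well above the rest. A second CDC6 probe set was at the floor on 10 of the 12 arrays, that of male 3 included, and had 204 in male 2. ORC1, the largest subunit of the origin recognition complex, was the 1 gene of this sub-group that peaked elsewhere, at 409 in female 5, with 394 in male 3 and the floor in female 4.

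**Figure D2:**
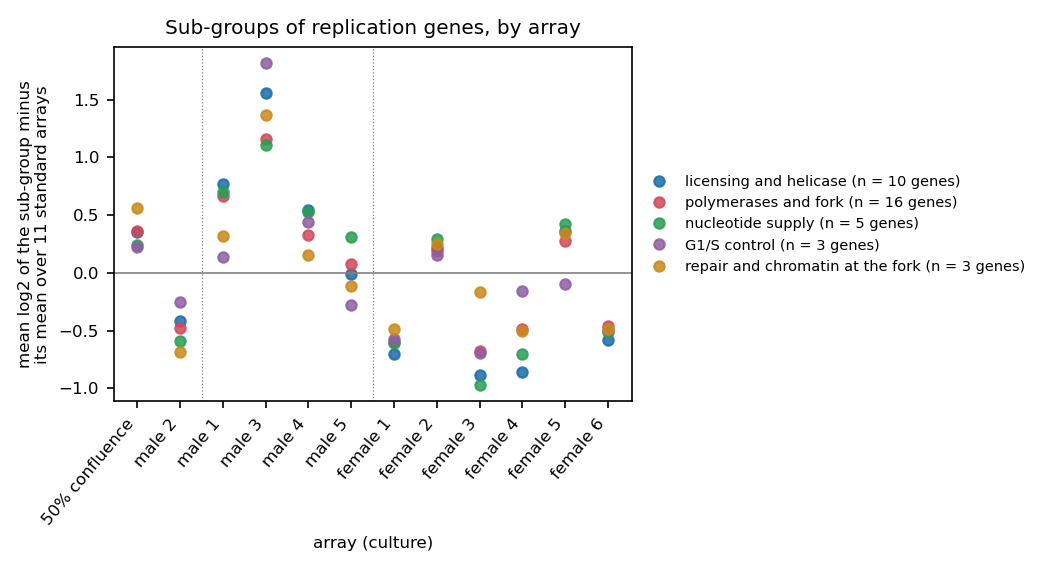
Mean log2 intensity of each sub-group of genes (colours) on each of the 12 arrays, minus the mean of that sub-group over the 11 standard arrays (line at 0). All 5 sub-groups were highest in male 3 among the standard arrays, from 1.10 to 1.82 above the 11-array mean, and all 5 were higher in the culture of male line 2 at 50% confluence than in its standard culture.

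Genes of the polymerases and the replication fork had the same 6 highest lines in the same order as the licensing genes (male 3, male 1, male 4, female 5, female 2 and male 5), with a smaller range. The mean of these 16 genes was 9.35 in male 3 and 7.51 in the line labelled female 3. PCLAF, a small protein that binds PCNA, varied most of all 37 genes. It had 2880, 484, 3950, 2703 and 2646 in males 1 to 5 and 960, 2547, 294, 570, 3194 and 610 in females 1 to 6. The values fell on 2 sides of a gap, with 6 lines at 2547 or more and 5 at 960 or less. PCNA itself had 3328, 1573, 5817, 2751 and 2514 in males 1 to 5, against 1224, 1668.5 and 3654 as lowest, median and highest in the female lines, with no such gap. A second PCNA probe set had 555 to 1504 on the standard arrays and was highest in male 1.

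POLD1, the catalytic subunit of polymerase delta, was measured above the floor in few lines. It had 512, 100, 784, 127 and 100 in males 1 to 5 and stood at the floor in all 6 female lines. The fitted male minus female difference was 1.11 (SE 0.48, limma unadjusted p = 0.0347, adjusted p = 0.889). This value rests on males 1 and 3, since males 2 and 5 were at the floor too. POLD1 passed the filter on dim probe sets only through males 1, 3 and 4. Its p-value is therefore no support for a difference. POLA1, the catalytic subunit of polymerase alpha, and PRIM1, the primase that starts each strand, varied less. POLA1 had 114 in male 2 to 362 in male 3, and PRIM1 had 100 to 273, with the second highest value, 235, in male 2. POLE2, a subunit of polymerase epsilon, never exceeded 168.

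FEN1 and LIG1 trim and seal the fragments of the lagging strand. FEN1 had 1068, 609, 1803, 825 and 755 in males 1 to 5 and 239, 383 and 1019 as lowest, median and highest in the female lines. LIG1 had 483, 100, 836, 295 and 272 in males 1 to 5, and in the female lines the floor in 3 and 276 at highest. Male 3 was highest in both, and the other 2 FEN1 probe sets were also highest in male 3. RNASEH2A, the catalytic subunit of an enzyme that removes RNA from DNA, had 575, 388, 732, 559 and 532 in males 1 to 5. Its values in the female lines were 193 at lowest, 317 at the median and 410 at highest. Only male 2 lay within the range of the female lines.

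The clamp loader genes and the RPA genes, whose products coat single-stranded DNA, were less uniform. RFC4 had 1077 in male 3 and 156 to 557 in the other standard lines. RFC3 was at the floor in 8 of the 11 standard lines and reached 174 in male 3. RFC5 had its highest deposited value in male 4, at 321, against 290 in male 3. After normalization these 2 lines were 0.59 and 0.63 log2 units above its 11-array mean. RPA1 and RPA3 were highest in female 5, at 563 and 449, against 411 and 425 in male 3. RPA2 had 867 in male 3 and, as the second highest value, 590 in the line labelled female 3, in which 18 of the 37 genes were lowest or tied for lowest.

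Nucleotide supply genes were ordered like the licensing genes at the top and the bottom. Their mean was 10.86 in male 3 and 8.78 in the line labelled female 3. TYMS, thymidylate synthase, had 2426, 1160, 3395, 2577 and 1996 in males 1 to 5 and 664, 864.5 and 2130 as lowest, median and highest in the female lines. RRM2, the regulated small subunit of ribonucleotide reductase, had 381, 100, 487, 512 and 186 in males 1 to 5, with 208 as the highest of the female lines and the floor in females 1, 3 and 4. RRM1, the large subunit of the same enzyme, had 609, 198, 1167, 433 and 568 in males 1 to 5 and 258, 327.5 and 774 as lowest, median and highest in the female lines. Both subunits were low in male 2, but male 4, the highest line for RRM2, had only the median RRM1 value of the 11 lines, 433.

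TK1, thymidine kinase, was highest in male 1 on both of its probe sets, with 3510 on the chosen set and 3917 on the other. On the chosen set the line labelled female 3 had 348, while the other 10 standard lines had 1267 to 3510. DUT, which removes dUTP, had 4648 in male 3 and 1464 in the line labelled female 3, and its SD of 0.50 was among the smaller ones.

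Of the G1/S control genes, both cyclins E were high in male 3 more than in any other line. CCNE1 had 324, 147, 841, 300 and 146 in males 1 to 5 and 100, 163.5 and 227 as lowest, median and highest in the female lines. CCNE2 had 542 in male 3, 219 in female 2 and at most 167 in the other 9 standard lines. E2F1, the transcription factor, had 310, 411, 847, 477 and 338 in males 1 to 5 and 116, 260 and 339 as lowest, median and highest in the female lines. Male 2 had the third highest E2F1 value of the 11 standard lines, although most of the 37 genes were low in it. A second E2F1 probe set was at the floor on 7 of 12 arrays and gave no clear order.

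The genes of repair and chromatin at the fork were MSH6, a mismatch recognition protein, UNG, which removes uracil from DNA, and CHAF1A, a subunit of the factor that places histones on new DNA. CHAF1A had 765, 275, 1219, 560 and 181 in males 1 to 5 and 158, 242.5 and 503 as lowest, median and highest in the female lines. MSH6 had 455, 211, 630, 318 and 353 in males 1 to 5 and 185 to 331 in the female lines. UNG had 109, 124, 488, 188 and 302 in males 1 to 5 and 134, 219.5 and 333 as lowest, median and highest in the female lines. Male 3 was highest for all 3, but male 1, the second highest line in the mean of the 37 genes, had the lowest UNG value of all.

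Male 3 stood apart from the other lines when replication genes were set beside genes of mitosis, the stage after S phase and G2. This comparison was made after the values were seen, and it rests on 1 array, with no test. The mean of 22 mitosis genes ranked male 3 sixth of the 11 standard lines, at 8.60, where the mean of the 37 replication genes ranked it first. Relative to the 11-array means, male 3 was 1.33 log2 units up in replication genes and 0.24 up in mitosis genes, a gap of 1.09. In the other 10 standard lines this gap lay between -0.57 (male 5) and 0.34 (female 3). Of the 22 mitosis genes, 16 were above their own mean in male 3, while all 22 were in male 1 and in female 5. The blood marker sum was also highest in male 3 (2573, against 816 to 2471 in the other standard lines), through CD14 at 1576, with 1673 in female 2, and its part in the result was not tested.

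**Figure D3:**
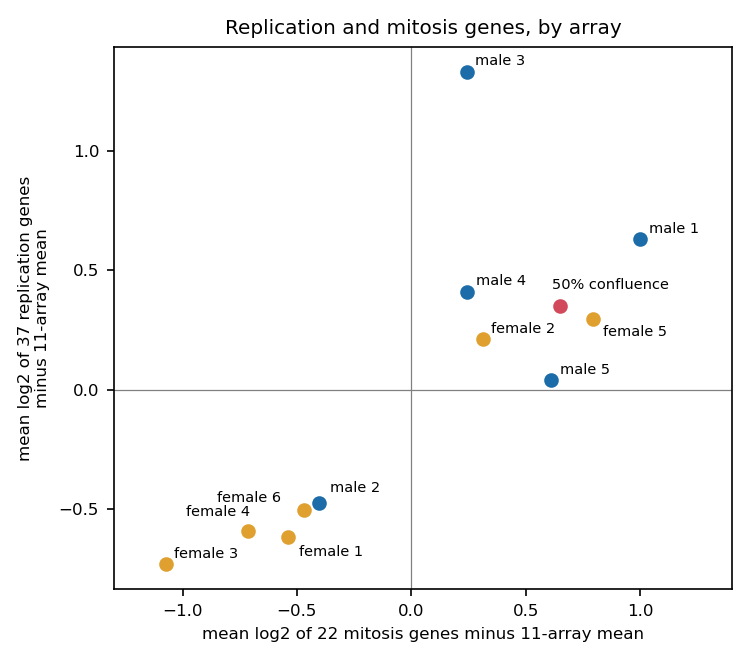
Mean log2 intensity of the 37 replication genes (vertical axis) and of 22 mitosis genes (horizontal axis), each minus its mean over the 11 standard arrays. Each point is 1 array, blue for lines labelled male, yellow for lines labelled female and red for the 50% confluence culture. Male 3 lies at 1.33 and 0.24, and no other array lies so far up at so low a mitosis value.

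Between the sexes, replication genes leaned toward higher values in the lines labelled male, and no gene passed the test. A positive male minus female difference was found for 36 of the 37 genes, with a median of 0.75 log2 units, whereas 48.8% of all probe sets tested were positive, with a median of -0.0085. limma called 0 of the 37 genes after Benjamini-Hochberg adjustment over all 7535 probe sets, and 0% of those probe sets. At an unadjusted p under 0.05 there were 15 of the 37 genes, all higher in males, against 2.71% of all probe sets. The 15 include POLD1, which passed the filter only through male lines. The 37 genes share the same arrays and rose and fell together over the lines. They are no replicates of one another, so these counts are not those of 37 separate observations. The smallest adjusted p of a member was 0.727. No gene separated the sexes without overlap, which 0.305% of all probe sets did. The 22 mitosis genes leaned the same way, so the lean was not particular to replication genes. All 22 had a positive difference, with a median of 0.55. Of them, 5 had a limma unadjusted p under 0.05 and 0 were called.

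By sub-group, the median difference was 0.9996 for the 10 licensing and helicase genes, 7 of them with an unadjusted p under 0.05. It was 0.55 for the 16 polymerase and fork genes, with 5 such genes, POLD1 among them, and 0.79 for the 5 nucleotide supply genes, with 2. The G1/S genes had a median of 0.75, with 1 such gene, and the repair and chromatin genes 0.39, with 0. Without the line labelled female 3 these medians were 0.85 (4 such genes), 0.51 (4), 0.41 (2), 0.72 (1) and 0.39 (0). UNG was the 1 gene with a negative difference (-0.11, SE 0.36).

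The 10 genes with the smallest p came from 4 of the sub-groups. RNASEH2A averaged 9.07 ± 0.35 log2 in male lines (SD, n = 5) and 8.12 ± 0.46 in female lines (SD, n = 6), a difference of 0.95 (SE 0.25, limma adjusted p = 0.727). MCM4 averaged 8.79 ± 0.53 in male lines (SD, n = 5) and 7.62 ± 0.72 in female lines (SD, n = 6), a difference of 1.17 (SE 0.34, limma adjusted p = 0.804). The other 8 had limma adjusted p = 0.889 each. Their differences were 1.05 for GINS1, 1.18 for RRM2, 1.04 for TYMS, 0.92 for E2F1, 1.33 for CDC45, 1.21 for MCM3, 1.07 for FEN1 and 1.06 for MCM7, with SEs of 0.30 to 0.45. Without the line labelled female 3 the 10 differences were 0.72 (E2F1) to 1.23 (CDC45), with limma adjusted p = 0.943 each, and all but MCM7 kept an unadjusted p under 0.05. CDC45 was at the floor in 4 of the 6 female lines, RRM2 in 3 of them and in male 2, GINS1 in 2 and MCM4 in 1. With a floor of 200 the differences of these genes were 0.78, 0.71, 0.62 and 0.86, in this order. For MCM3, E2F1 and RNASEH2A they were then 0.90, 0.77 and 0.92, and for TYMS, FEN1 and MCM7 they did not change. Nearest to the median of the 37 genes were CCNE1 (0.75), RPA3 (0.72) and TK1 (0.79). Of the 15 further probe sets of these genes, 11 were tested, and all 11 had a positive difference.

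**Figure D4:**
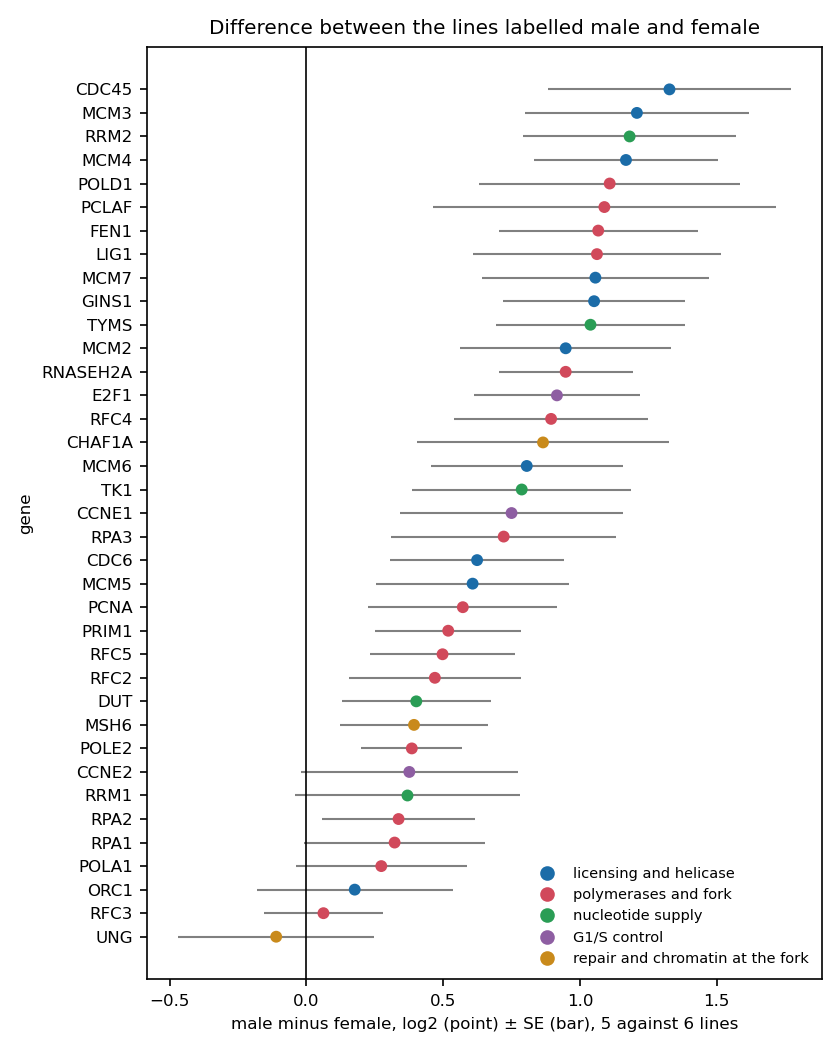
Male minus female difference (points, log2 units) with its standard error (bars) for each of the 37 genes, from 5 lines labelled male and 6 labelled female, ordered by size and coloured by sub-group. All points but that of UNG lie right of 0, and the median is 0.75.

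This lean depended on a few lines. Without male 3 the median difference was 0.50, with 9 genes at an unadjusted p under 0.05 against 2.48% of all probe sets, and CCNE2 and ORC1 turned negative. Without male 2 it was 0.96, with 26 genes against 3.93% of all probe sets. With male line 2 represented by its 50% confluence culture instead, all 37 were positive, with a median of 0.84 and 28 genes at an unadjusted p under 0.05, against 4.79% of all probe sets. Without the line labelled female 3 the median was 0.59, with 11 genes against 2.04%. In none of these fits was any of the 37 genes called.

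Donor age was related to replication genes in no clear direction. With sex in the fit, the median slope was 0.039 log2 units per 10 years, 24 slopes were positive and 13 negative, and 50.5% of all probe sets had a negative slope. limma called 0 of the 37 genes and 0% of the 7535 probe sets, and 0 genes had an unadjusted p under 0.05, against 5.43% of all probe sets. The 6 smallest p-values belonged to CHAF1A (slope 0.43, SE 0.22), CCNE1 (0.37, SE 0.20), TK1 (-0.32, SE 0.20), CDC6 (0.21, SE 0.16), MCM3 (0.23, SE 0.21) and PCNA (0.18, SE 0.18), each with a limma adjusted p of 0.898 or more. The youngest donors, of 2 and 3 years (female 6 and male 5), ranked eighth and sixth of 11 in the mean of the 37 genes. Among the 9 donors of 18 years or older the direction was the other way, with a median slope of -0.17 and 32 of 37 negative, against 50.7% of all probe sets. The oldest donor is that of the line labelled female 3, the line lowest in replication genes. Over all ages the median was 0.13 without that line and 0.039 with it. No fit of adults without that line was run, so its part in the adult direction was not tested.

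In the culture of male line 2 at 50% confluence, replication genes were mostly higher than in the standard culture of the line, with 1 array each and so no replicate check and no p-value. After normalization 33 of the 37 genes were higher and 4 lower, with a median of 0.92 log2 units, where 47.7% of all probe sets were higher, with a median of 0. As deposited, 30 were higher and 7 lower, where 41.2% of all probe sets were higher. A difference of 2-fold or more upward was found for 13 of the 37 genes, against 6.9% of all probe sets, and downward for 1, against 7.27%.

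The largest difference was that of PCLAF, with 2605 at 50% confluence and 484 in the standard culture (5.31-fold). RRM1 had 706 at 50% confluence and 198 in the standard culture (3.98-fold). RPA3 had 382 at 50% confluence and 126 in the standard culture (3.63-fold), and its second probe set had 195 at 50% confluence and 150 in the standard culture (log2 difference 0.76). These 3 genes bind the clamp, make deoxynucleotides and coat single strands. The next genes stood at the floor in the standard culture, so that only a lower limit is given, from deposited intensities. LIG1 had 323 at 50% confluence, at least 3.23-fold higher, RRM2 had 262, at least 2.62-fold, POLD1 254, at least 2.54-fold, and RFC2 216, at least 2.16-fold. At 50% confluence CDC45 had 344, MSH6 464, CHAF1A 583, UNG 226 and MCM5 500. In the standard culture CDC45 had 161, MSH6 211, CHAF1A 275, UNG 124 and MCM5 251. Their normalized folds lay between 2.22 (MCM5) and 2.61 (CDC45).

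By sub-group, the median log2 difference was 0.87 for licensing and helicase genes, of which all 10 were higher after normalization. It was 0.93 for polymerase and fork genes (14 of 16 higher), 0.79 for nucleotide supply (4 of 5), 0.91 for G1/S control (2 of 3) and 1.20 for repair and chromatin (3 of 3). The helicase genes split. MCM2, MCM5, MCM6 and MCM7 had normalized folds of 1.84 to 2.22, while MCM3 and MCM4 had 1.13 each. As deposited these 2 were slightly lower: MCM3 had 213 at 50% confluence and 231 in the standard culture, and MCM4 had 314 at 50% confluence and 318 in the standard culture. CDC6 had 178 at 50% confluence and 173 in the standard culture. Its other probe set, which did not pass the filter, went the other way, from 204 in the standard culture to the floor at 50% confluence.

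A few genes ran the other way. PRIM1 was at the floor at 50% confluence and had 235 in the standard culture, a normalized difference of -1.09 log2 units. E2F1 had 267 at 50% confluence and 411 in the standard culture. TK1 depended on the probe set. The chosen set had 1203 at 50% confluence and 1494 in the standard culture, but the other had 1733 at 50% confluence and 683 in the standard culture. FEN1 also did, with 602 at 50% confluence and 609 in the standard culture on the chosen set, and with 995 at 50% confluence and 430 in the standard culture on another. The remaining FEN1 set had 388 at 50% confluence and 348 in the standard culture. TYMS differed by 0.26 log2 units on the chosen set and by 1.29 on its other. Of the 11 other probe sets tested, 7 had the sign of the chosen one.

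**Figure D5:**
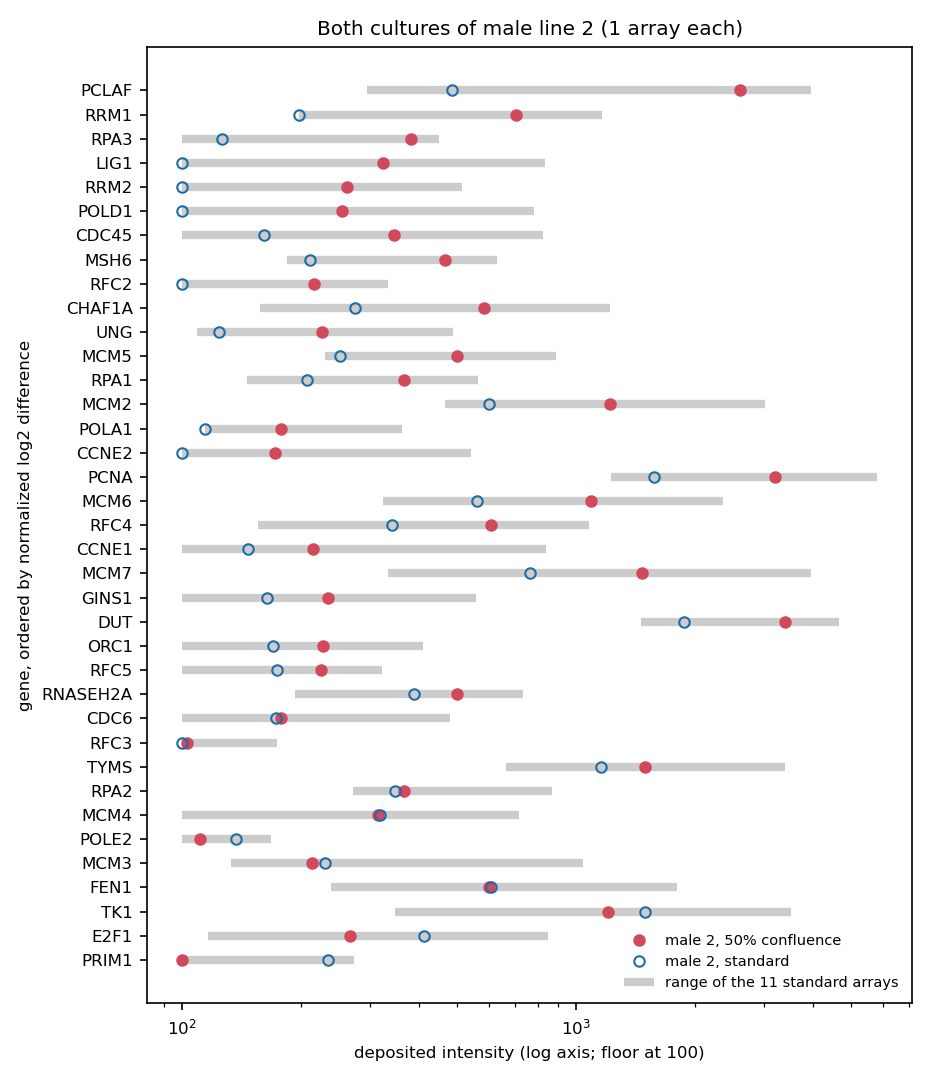
Deposited intensity (log axis) of each of the 37 genes in the culture of male line 2 at 50% confluence (filled red) and in its standard culture (open blue), with the range of the 11 standard arrays (grey bars). All 37 red points lie within the grey ranges, where 5.08% of all probe sets lay above theirs. The genes are ordered by normalized difference, from PCLAF at the top to PRIM1 at the bottom.

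None of the 37 genes was above all 11 standard arrays in the culture at 50% confluence, where 5.08% of all probe sets were. With so small a share, this is no result about the 37 genes. None was below all 11 either, and the share of all probe sets below was not computed. In the standard culture of male line 2, 28 of the 37 genes were below the median of the standard arrays, against 39% of all probe sets. At 50% confluence 27 were above that median, against 42.2%. The mean of the 37 genes, 8.78 at 50% confluence, was exceeded by 3 standard lines, and the standard culture of the line, at 7.95, ranked seventh. Mitosis genes moved by more, with a mean of 9.01 at 50% confluence and 7.96 in the standard culture. Signal on both arrays differed too, with 49.2% of probe sets at the floor at 50% confluence and 40.1% in the standard culture, and with a fibroblast marker sum of 76203 at 50% confluence and 131816 in the standard culture. The part of these in the result was not tested.

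Other genes of the same pathways, from a list of 99 with 77 measured and 61 tested, showed the same lean to a lesser degree. Between the sexes 46 of the 61 had a positive and 15 a negative difference, with a median of 0.25, where 48.8% of all probe sets were positive, and 0 were called. The genes with the smallest p in each list were RECQL4 and ORC5, POLD3 and POLE3, PPAT and GART, CDC25A and CDK2, and BRCA1 and RAD54L. POLE3, an accessory subunit of polymerase epsilon, differed by 1.05 (SE 0.32), BRCA1, a repair protein, by 0.95 (SE 0.27), and POLD3, an accessory subunit of polymerase delta, by 0.92 (SE 0.25), with limma adjusted p = 0.804, 0.761 and 0.727. The other 7 had differences of 0.46 to 0.79 and limma adjusted p = 0.889. For age 31 slopes were positive and 30 negative.

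At 50% confluence 41 of these 61 genes were higher and 17 lower, with a median of 0.27, and 8 were higher by 2-fold or more, where 47.7% of all probe sets were higher and 6.9% by 2-fold or more. CKS1B, which binds cyclin-dependent kinases, had 1214 at 50% confluence and 335 in the standard culture. CCNA2, the cyclin of S phase and G2, had 868 at 50% confluence and 300 in the standard culture. UMPS, of pyrimidine synthesis, had 281 at 50% confluence and 141 in the standard culture. These 3 were among those with the larger differences. NME1, a nucleoside diphosphate kinase, SSRP1, a histone chaperone subunit, and XRCC2, a recombination protein, had 3082, 2554 and 1094 at 50% confluence, against 1508, 971 and 471 in the standard culture. POLE, POLD2, ORC5 and RECQL4 had 386, 1361, 183 and 169 at 50% confluence, against 198, 674, 101 and the floor of 100 in the standard culture. Of the 61 genes, 1 was lower by 2-fold or more, where 7.27% of all probe sets were. It was CDKN1A, with 4233 at 50% confluence and 8479 in the standard culture. The median SD over the 11 standard arrays was 0.47 for these 61 genes, between that of all probe sets (0.41) and that of the 37 (0.76).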

How the data were processed

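RNA of 12 gorilla fibroblast cultures was measured on an array of 12625 probe sets. The authors deposited 1 intensity per probe set and array, on a linear scale, with a lowest value of 100 on every array. Software and scaling are not given in the sources used.

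Without the 67 control probe sets, intensities were taken to log2 and quantile normalized over the 12 arrays, whose log2 medians ran from 6.71 to 7.21. Probe sets with a mean above the 40th percentile over the 11 standard arrays were tested (7535). limma 3.58.1 in R 4.3.3 (lmFit, eBayes) gave the male minus female difference and, in a fit that also held sex, the slope per 10 years of age. P-values were adjusted over all probe sets (Benjamini-Hochberg, threshold 0.05). They reflect the variation among lines, taken as those of separate animals, and precision is limited by the number of arrays. The fits were tested on simulated data. The pair of cultures of male line 2 had no test. The labels give no batch.

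Of the 37 chosen probe sets, 5 end in _s_at and 1 in _g_at, marks of sets that can match more than 1 transcript. Genes, sub-groups and lists were chosen with earlier results of these data known. By rule, full statistics are given for the 10 smallest p for sex and the 3 genes nearest the median, the 6 smallest p for age, the 12 largest differences at 50% confluence, and 2 genes per other list for sex and for confluence. Further values were chosen after they were seen. The alternatives were other normalizations, filters, floors and probe set choices, array weights, adults only, log2 of age, and leaving out each line.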

Additional observations from a re-analysis of the deposited data

Results flagged for a closer look

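Among 74 groups of values (37 genes in male and in female lines), 8 held a line whose gap to the nearest other line was beyond Dixon's 95% limit, or 10.8%. Chance gives about 1 group in 20 where values are free to vary, a rate that cannot be applied to groups with lines tied at the floor. Of the 8, 4 held such lines: RFC3 in males (4 of 5 lines), POLE2 in females (4 of 6), CCNE2 in females (3 of 6) and CCNE2 in males (2 of 5). In male 3, CDC6 had 478 against 173 in the next male line, CCNE2 had 542 against 167, and RFC3 had 174 while the other male lines were at the floor of 100. In male 2, PCLAF had 484 against 2646 in the next male line, and RPA3 had 126 against 335. In female 2, CCNE2 had 219 against 123 in the next female line, and POLE2 had 150 against 104. In the line labelled female 3, TK1 had 348 against 1267 in the next female line.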

How the results depend on the processing

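The lean toward male lines kept its sign in every setting tried, with a median difference of the 37 genes of 0.50 (without male 3) to 0.96 (without male 2) when lines were left out in turn. limma called 0 probe sets for sex in the fit reported, 0 to 1 with a line left out (1 without the line labelled female 3) and 2 when male line 2 was represented by its 50% confluence culture. For age it called 0, 0 in each run with a line left out, and 1 with that culture. None of these was among the 37 genes. The median age slope ran from -0.030 to 0.14 with a line left out, and the median SD over lines from 0.61 to 0.80. At 50% confluence 13 genes were higher by 2-fold or more (6.9% of all probe sets), 23 with median scaling (17.3%) and 5 with a floor of 200 (3.33%). Median scaling moved the median of all probe sets by 0.44, and the median of the 37 genes less that shift was 0.87. Signs turned between the sexes for UNG, ORC1 and CCNE2. UNG had 0.16 with a floor of 200, 0.13 with the 50% confluence culture, and -0.44 to 0.11 with a line left out. UNG was then positive without male 1, male 2 or female 5. ORC1 had -0.0391 to 0.36 with a line left out, negative without male 3 or female 4. CCNE2 had -0.0771 without male 3 and up to 0.56 without female 2. Age slopes of single genes were followed through the settings only for those named above with the smallest p for age. Of these, MCM3 (-0.11), PCNA (-0.031) and CHAF1A (-0.18) turned negative in adults. Over all 37 genes, 13 age slopes were negative in the fit reported and 32 among donors of 18 years or older. The median slopes were 0.039 and -0.17, in this order. The cause of these changes was not tested. The floor limits 16 of the 37 genes, whose lowest line has only an upper limit. No paired test was possible. The labels pair no male line with a female line, and the pair of cultures of male line 2 has 1 array each.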
